A study of Mus musculus with 24 samples.

Results

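The genes described here are 10 widely used markers of connective tissue and vessel wall cells, taken by gene symbol from a table of 27179 mouse genes. Lum, Dcn, Tcf21, Postn and Pdgfra mark fibroblasts. Acta2, Myh11, Tagln and Cnn1 mark smooth muscle, and Pdgfrb marks pericytes and other mural cells. Their H3K4m3 signal, trimethylation of histone H3 at lysine 4, was measured by ChIP followed by sequencing in 4 mouse organs. All 10 passed the filter on low values, as did 25680 of all genes.

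Organs had been preserved in 2 ways. FFPE organs were fixed in 10% formalin and embedded in paraffin, and their chromatin was later extracted at 95 °C for 20 min. Frozen organs were flash frozen, and cores of them were crosslinked with 1% formaldehyde for 30 min before shearing. The table holds 1 column, called a library here, for each of the 8 groups: FFPE brain, heart, kidney and liver, and frozen brain, heart, kidney and liver. The labels give no treatment other than preservation, and no altered gene. The sources used here name no strain, age, sex or number of animals. Whether an FFPE column merges the 2 FFPE samples that the labels list for its organ is not given either. Those 2 samples carry different dates in the labels, and the frozen samples carry the earlier of them. The labels also name 2 kinds of library kit without saying which sample had which. Whether kit went with preservation or organ is therefore not known, and an effect of kit cannot be separated from either.

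H3K4m3 sits around the start sites of genes that are transcribed or held ready for transcription. Fibroblasts build the collagen-rich matrix between the working cells of an organ, and respond to platelet-derived growth factor through its alpha receptor. Smooth muscle cells ring the arteries and use a contractile apparatus of their own actin and myosin, which serum response factor and its partner myocardin switch on. Mouse heart is rich in fibroblasts, while fibroblasts of the brain are largely limited to the meninges and the vessel walls. In whole organs, fewer cells of a type and less of the mark per cell cannot be told apart.

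The libraries held 1792394 (frozen heart) to 5275085 (FFPE kidney) reads, and within every organ the FFPE one held more. Of the markers of the organs, 8 of 8 for hepatocytes passed as higher in liver, 8 of 8 for neurons in brain, 6 of 8 for kidney tubule in kidney and 3 of 8 for heart muscle in heart. The heart muscle marker Ryr2, a calcium channel gene, passed as higher in brain (1.69-fold, adjusted p = 0.0204) and not in heart (adjusted p = 0.568). A gene passes here when its adjusted p in a linear model of organ and preservation is under 0.05. The standard errors (SE) of this model come from disagreement between FFPE and frozen organ differences, not from replicates. Values are given in CPM, the deposited scale without its log2, in which reads are divided by a scaled library size. The 10 genes held between 6 and 351 reads in a library. The part of a gene in which reads were counted is not given, so levels are compared between libraries and not between genes.

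Heart stood apart in the 2 matrix proteoglycans of the set. Lum and Dcn were about 3-fold higher there than in the other organs, and lay above them both in FFPE and in frozen tissue. Of the 10 genes these 2 passed as higher in heart, where 1.72% of all tested genes passed as higher, and none passed as lower, where 0.853% of all tested genes did. For Lum, Dcn and Acta2 both heart libraries lay above the 6 others, which makes 3 of 10 genes whose groups did not overlap, against 6.58% of all tested genes. The median difference of the 10 genes was 0.56 on the log2 scale, beside -0.04 over all tested genes.

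Lum encodes lumican, a proteoglycan that spaces collagen fibrils (gene ID 17022, GRCm38 chromosome 10, 97565501 to 97572703). It had 27.4 CPM in FFPE heart and 43.2 CPM in frozen heart, against 13.5 and 8.34 CPM in FFPE and frozen kidney, 11.1 and 11.2 CPM in FFPE and frozen liver, and 9.20 and 11.8 CPM in FFPE and frozen brain. The lower heart library held 89 reads, with a 95% Poisson interval of 21.9 to 33.5 CPM, while no interval of the other 6 libraries reached above 16.8 CPM. The log2 difference of heart from the mean of the other organs was 1.68 ± 0.35 (SE, 2 heart and 6 other libraries), a 3.21-fold difference with an adjusted p of 0.0229.

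Dcn encodes decorin, which binds collagen and holds transforming growth factor beta in the matrix (gene ID 13179, chromosome 10, 97479500 to 97518163). It had 40.6 CPM in FFPE heart and 45.4 CPM in frozen heart, against 16.9 and 12.0 CPM in FFPE and frozen kidney, 18.8 and 15.5 CPM in FFPE and frozen liver, and 9.20 and 14.8 CPM in FFPE and frozen brain. The heart libraries were close to each other and lay well above the rest. The log2 difference was 1.60 ± 0.31 (SE, 2 and 6 libraries), a 3.04-fold difference with an adjusted p of 0.0162.

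Set apart by preservation, heart exceeded the mean of the other 3 organs by 1.30 in FFPE and 2.06 in frozen libraries for Lum, and by 1.51 in FFPE and 1.70 in frozen libraries for Dcn. Leaving out any 1 library kept the difference between 1.30 and 2.06 for Lum and between 1.45 and 1.75 for Dcn. The ends for Lum came from leaving out frozen heart and FFPE heart. They restate the FFPE and frozen values above and are no separate check. Both genes stopped passing without FFPE heart, without frozen heart or without frozen kidney, and Lum also without FFPE brain (adjusted p = 0.0647). Without the intensity trend in limma both had an adjusted p of 0.206.

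**Figure D1:**
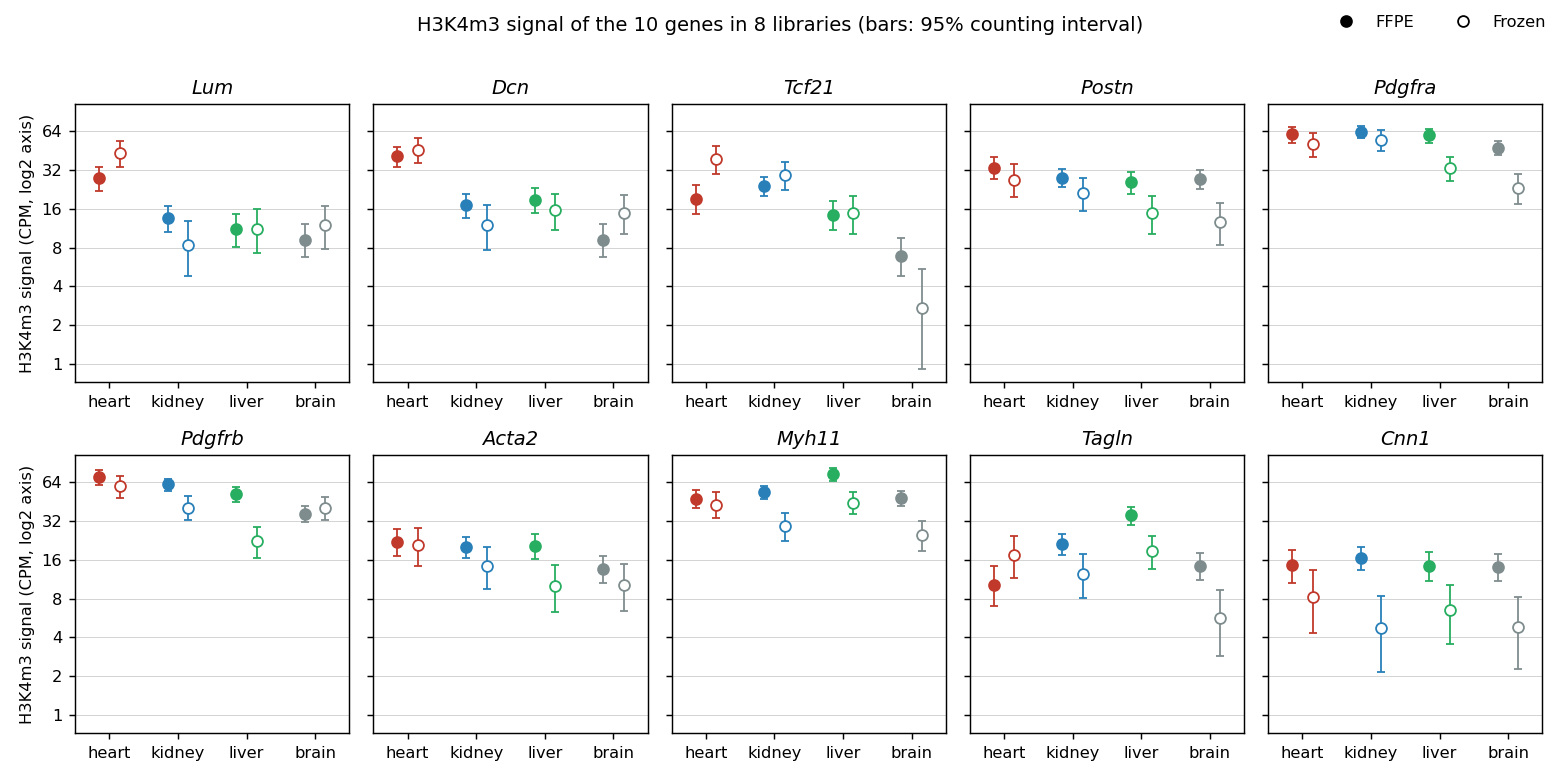
H3K4m3 signal of each of the 10 genes in CPM on a log2 axis, by organ, with FFPE libraries as filled and frozen libraries as open points and 95% Poisson counting intervals as bars. The heart points of Lum (27.4 and 43.2 CPM) and Dcn (40.6 and 45.4 CPM) lie above those of the other organs, and the brain points of Tcf21 (6.92 and 2.70 CPM) below them.

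Lum and Dcn are neighbours on chromosome 10, with 47337 bases between them, in a cluster of small leucine-rich proteoglycan genes that also holds Kera and Epyc. Kera encodes keratocan of the cornea and Epyc epiphycan of cartilage. Kera had log2 values of 2.78 in FFPE heart and 2.08 in frozen heart, inside the range of 1.35 to 3.62 of the other organs, and differed in heart by -0.14 ± 0.49 (adjusted p = 0.937). Epyc had log2 values of 3.63 in FFPE heart and 3.53 in frozen heart, against 2.29 to 3.34 in the other organs, a difference of 0.69 ± 0.41 that did not pass (adjusted p = 0.475). So of the 4 neighbouring genes, Lum and Dcn passed in heart. Whether the 4 genes differed from each other in this was not tested.

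**Figure D2:**
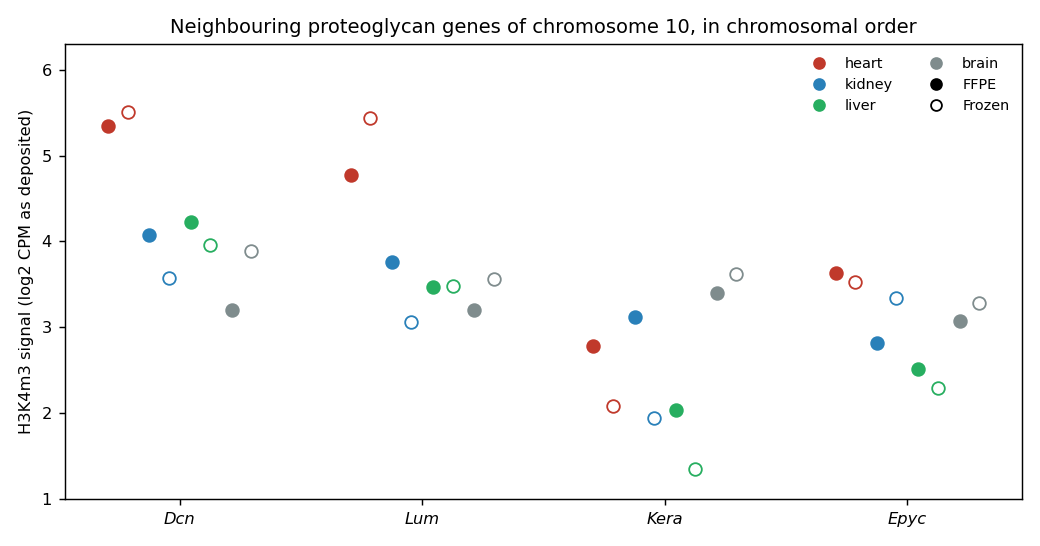
Deposited log2 values of Dcn, Lum, Kera and Epyc, in the order in which they lie on chromosome 10, with FFPE libraries filled and frozen libraries open. Heart lies above every other library for Dcn, Lum and Epyc, and within the range of the others for Kera.

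Markers of endothelial cells were also higher in heart. Of the 8 endothelial markers 7 passed, with a median difference of 1.26, and their summed level was 756 CPM in FFPE heart and 656 CPM in frozen heart, against 163 to 423 CPM in the other 6 libraries. The 8 heart muscle markers summed to 372 CPM in FFPE heart and 398 CPM in frozen heart, against 88.3 to 279 CPM in the others. The 8 immune markers summed to 259 CPM in FFPE heart and 149.6 CPM in frozen heart, against 124 to 261 CPM, and none of them passed in heart. The 6 skeletal muscle markers summed to 105 CPM in FFPE heart and 84.1 CPM in frozen heart, against 36.1 to 169 CPM, and none passed in heart. No marker of these 4 lists had 0 reads in any library. Their part in the result for Lum and Dcn was not tested.

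In brain the gene of the set that passed was Tcf21, which encodes a transcription factor. It is needed for the fibroblasts of the heart and for kidney development (gene ID 21412, chromosome 10, 22817263 to 22820143). Tcf21 had 6.92 CPM in FFPE brain and 2.70 CPM in frozen brain, against 19.1 and 38.7 CPM in FFPE and frozen heart, 23.9 and 29.1 CPM in FFPE and frozen kidney, and 14.4 and 14.7 CPM in FFPE and frozen liver. Both brain libraries lay below all others, and frozen brain held 6 reads, with a Poisson interval of 0.915 to 5.43 CPM. The log2 difference of brain from the other organs was -2.34 ± 0.41 (SE, 2 brain and 6 other libraries), 5.05-fold lower, with an adjusted p of 0.0018.

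Of the 10 genes Tcf21 passed as lower in brain, where 4.53% of all tested genes did, and none passed as higher, where 5.53% did. It was also the gene whose brain libraries did not overlap the others, which held for 12.2% of all tested genes. All 10 differences were negative in brain, with a median of -0.58 beside -0.01 over all tested genes. The values nearest to Tcf21 were -0.98 ± 0.39 for Tagln (adjusted p = 0.162) and -0.91 ± 0.31 for Dcn (adjusted p = 0.0884), neither of which passed. Dcn passed after quantile normalization (adjusted p = 0.0299) and without frozen liver (adjusted p = 0.0413), Pdgfra likewise (adjusted p = 0.0358 and 0.0245), and Tagln without FFPE heart (adjusted p = 0.0372).

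The Tcf21 difference was -1.44 within the FFPE libraries and -3.24 within the frozen libraries. It no longer passed without frozen brain (adjusted p = 0.194) or without the intensity trend (adjusted p = 0.0803). The noncoding RNA gene Gm10824 (22813381 to 22821942) covers the whole of Tcf21. Its log2 values were 3.57 in FFPE brain and 2.69 in frozen brain, against 3.01 to 5.09 in the other organs. Reads from anywhere in Tcf21 therefore cannot be assigned to either gene with certainty.

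**Figure D3:**
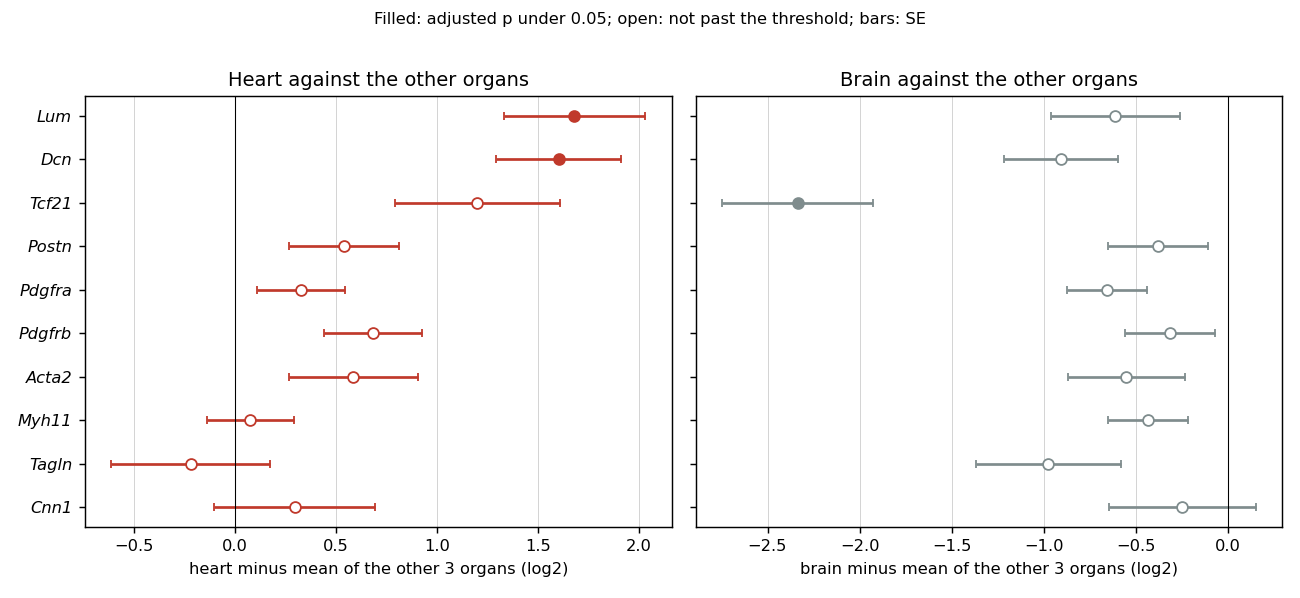
Difference of heart (left) and of brain (right) from the mean of the other 3 organs for each of the 10 genes, on the log2 scale, with the SE as bars and filled points for genes that passed. Lum and Dcn passed in heart at 1.68 and 1.60, and Tcf21 passed in brain at -2.34.

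Tcf21 had its highest levels in heart and kidney, and these could not be ordered: the heart mean exceeded the kidney mean by 0.05 ± 0.50. Both lay above brain, by 2.65 ± 0.50 for heart (6.29-fold, adjusted p = 0.00497) and by 2.61 ± 0.50 for kidney (6.10-fold, adjusted p = 0.00579). Liver exceeded brain by 1.75 ± 0.50 (3.36-fold, adjusted p = 0.0324). The start of Tcf21 in RefSeq lies in a window with 8 CpG pairs, shown here with each CG in capitals because CpG-rich starts tend to carry H3K4m3 in most tissues. The window is chr10:22820094-22820393 on the minus strand.

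Tcf21: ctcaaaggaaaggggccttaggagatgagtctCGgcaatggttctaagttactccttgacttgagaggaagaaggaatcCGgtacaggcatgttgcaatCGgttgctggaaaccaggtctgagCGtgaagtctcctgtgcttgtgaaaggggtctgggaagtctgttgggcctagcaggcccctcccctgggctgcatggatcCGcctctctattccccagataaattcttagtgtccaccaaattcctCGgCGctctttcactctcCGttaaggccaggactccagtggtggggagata

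RefSeq windows of 250 bases before to 50 after the start (GRCm38.p6) were at hand for 5 of the 10 genes, Tcf21, Postn, Pdgfra, Acta2 and Cnn1, with 6 windows in all because Postn has 2. They held 4 to 8 CpG pairs. Over all 32851 windows the median was 7, with quartiles at 3 and 20. None of the 6 windows reached the upper quartile.

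Postn, Pdgfra and Pdgfrb varied less between organs, and none of them passed in an organ comparison. Postn encodes periostin, a matrix protein of valves and of activated fibroblasts (gene ID 50706, chromosome 3, 54359267 to 54391041). It had 33.2 and 26.8 CPM in FFPE and frozen heart, 27.6 and 21.0 CPM in FFPE and frozen kidney, 25.6 and 14.7 CPM in FFPE and frozen liver, and 27.02 and 12.7 CPM in FFPE and frozen brain. Heart was highest in both preservation types, but frozen heart lay below FFPE kidney and FFPE brain, so the groups overlapped. Heart differed by 0.54 ± 0.27 (adjusted p = 0.379).

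Of the 2 Postn start sites in RefSeq, the downstream one (window chr3:54360857-54361156, plus strand) holds the letters TATAAA, in capitals below, from 26 to 21 bases before the start. These letters occur on the strand of the gene in 8.32% of all windows and on either strand in 13.6%.

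Postn: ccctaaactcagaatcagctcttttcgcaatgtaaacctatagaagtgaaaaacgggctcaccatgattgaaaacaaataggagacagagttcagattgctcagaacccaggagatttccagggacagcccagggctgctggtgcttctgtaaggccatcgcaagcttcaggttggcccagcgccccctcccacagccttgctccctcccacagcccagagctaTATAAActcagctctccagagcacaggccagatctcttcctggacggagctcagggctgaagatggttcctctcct

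Pdgfra encodes the receptor of platelet-derived growth factor that marks fibroblasts, and in brain also the precursors of oligodendrocytes (gene ID 18595, chromosome 5, 75151322 to 75198206). It had 59.9 and 50.5 CPM in FFPE and frozen heart, 62.9 and 53.9 CPM in FFPE and frozen kidney, 58.9 and 32.8 CPM in FFPE and frozen liver, and 47.1 and 23.1 CPM in FFPE and frozen brain. Brain was lowest in both preservation types, with FFPE brain above frozen liver. The brain difference of -0.66 ± 0.22 did not pass (adjusted p = 0.0777). The noncoding RNA gene Gm19583, 4215 bases away, had log2 values of 2.79 in FFPE brain and 1.64 in frozen brain, against 1.74 to 4.06 in the other organs.

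Pdgfrb encodes the related receptor of pericytes and smooth muscle (gene ID 18596, chromosome 18, 61045127 to 61085067). It had 69.7 and 59.0 CPM in FFPE and frozen heart, 60.9 and 40.4 CPM in FFPE and frozen kidney, 51.0 and 22.2 CPM in FFPE and frozen liver, and 36.1 and 40.1 CPM in FFPE and frozen brain. FFPE heart lay above every library, and frozen heart lay below FFPE kidney. The difference of heart was 0.68 ± 0.24 (adjusted p = 0.181), and that of liver -0.56 ± 0.24 (adjusted p = 0.194). Without FFPE liver both passed, at 0.85 in heart (adjusted p = 0.0121) and -1.04 in liver (adjusted p = 0.00984).

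None of the 4 smooth muscle genes passed in an organ comparison. Acta2 encodes smooth muscle alpha actin, which myofibroblasts also make (gene ID 11475, chromosome 19, 34240336 to 34255585). It had 21.9 and 20.6 CPM in FFPE and frozen heart, 19.9 and 14.2 CPM in FFPE and frozen kidney, 20.4 and 10.0 CPM in FFPE and frozen liver, and 13.6 and 10.2 CPM in FFPE and frozen brain. Both heart libraries lay above the others, by a small margin. The difference of 0.59 ± 0.32 did not pass (adjusted p = 0.424), on 24 to 111 reads in a library. The gene Stambpl1 ends 3 bases from Acta2, and its log2 values were 5.14 in FFPE heart and 6.16 in frozen heart, against 4.64 to 6.06 in the other organs.

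The Acta2 start (window chr19:34255324-34255623, minus strand) is shown because serum response factor is known to act on it through the CArG box. No window of the 5 genes held the full CArG box, which 1.63% of all windows hold. A form with 1 core base changed to C or G, searched on both strands after the full form had given no match, occurred in 8.5% of all windows and at 2 places in that of Acta2, in capitals here, from 84 to 75 and from 34 to 25 bases before the start. The 2 places do not overlap.

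Acta2: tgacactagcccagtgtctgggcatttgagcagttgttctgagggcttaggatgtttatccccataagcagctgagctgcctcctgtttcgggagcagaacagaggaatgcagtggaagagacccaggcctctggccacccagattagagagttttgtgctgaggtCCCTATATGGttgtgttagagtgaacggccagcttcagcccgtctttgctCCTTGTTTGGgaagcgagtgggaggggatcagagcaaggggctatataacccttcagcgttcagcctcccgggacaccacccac

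Myh11 encodes the myosin heavy chain of smooth muscle (gene ID 17880, chromosome 16, 14194527 to 14292188). It had 73.2 and 44.1 CPM in FFPE and frozen liver, 47.0 and 42.6 CPM in FFPE and frozen heart, 52.9 and 29.1 CPM in FFPE and frozen kidney, and 47.7 and 24.7 CPM in FFPE and frozen brain. Liver was highest in both preservation types. The difference of liver was 0.54 ± 0.22 (adjusted p = 0.154), and that of heart 0.08 ± 0.22 (adjusted p = 0.921). Nde1, 1599 bases away, had log2 values of 5.22 in FFPE liver and 4.73 in frozen liver, against 4.44 to 5.02 in the other organs.

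Tagln encodes transgelin, an actin-binding protein of smooth muscle (gene ID 21345, chromosome 9, 45929628 to 45936058). It had 35.1 and 18.6 CPM in FFPE and frozen liver, 10.3 and 17.2 CPM in FFPE and frozen heart, 21.0 and 12.4 CPM in FFPE and frozen kidney, and 14.3 and 5.61 CPM in FFPE and frozen brain. Liver was again highest in both preservation types, while heart was lowest among the FFPE libraries and next to liver among the frozen ones. The difference of liver was 1.04 ± 0.39, 2.06-fold, and did not pass (adjusted p = 0.124). It passed without frozen heart (adjusted p = 0.0444) and after quantile normalization (adjusted p = 0.033). Tagln overlaps Pcsk7, which encodes a secretory protease and had log2 values of 5.49 to 6.37, so reads from the shared stretch cannot be assigned with certainty. Sidt2, 1799 bases away on the other side, had log2 values of 6.65 to 7.62.

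Cnn1 encodes calponin, which restrains the smooth muscle myosin motor (gene ID 12797, chromosome 9, 22099221 to 22109221). It had 14.5 and 8.18 CPM in FFPE and frozen heart, 16.5 and 4.74 CPM in FFPE and frozen kidney, 14.4 and 6.47 CPM in FFPE and frozen liver, and 14.1 and 4.78 CPM in FFPE and frozen brain. Within a preservation type the organs lay close together, and its difference in any organ was between -0.25 and 0.30. The frozen libraries held 10 to 16 reads each, and their Poisson intervals overlapped. Differences between the frozen organs were not tested.

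In kidney and in liver none of the 10 genes passed with limma. At an unadjusted p under 0.05 there was 1 gene in kidney and there were 3 in liver, beside 9.66% and 22.1% of all tested genes. In kidney 0.802% of all tested genes passed as higher and 0.405% as lower, and in liver 5.13% and 4.84%. The medians of the 10 genes were 0.13 in kidney and -0.14 in liver, beside 0.02 and -0.01 over all tested genes.

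The organs were then ordered for each gene by the mean of their 2 libraries and compared pair by pair. Of 60 combinations of gene and organ pair, 6 passed. Against brain, heart was higher for Lum (3.30-fold, adjusted p = 0.027), Dcn (3.69-fold, adjusted p = 0.0079) and Tcf21, with 6.32% of all tested genes passing in either direction. Kidney and liver were higher than brain for Tcf21, with 6.29% and 12.9% of all tested genes passing. Heart was higher than liver for Lum (3.09-fold, adjusted p = 0.0348), with 6.76% of all tested genes passing. No gene of the set passed between heart and kidney, where 0.962% of all tested genes did, or between kidney and liver, where 3.32% did.

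Of the 30 pairs of neighbouring organs in these orders 2 passed: heart above liver for Lum, and liver above brain for Tcf21. For Dcn the step of 1.33 ± 0.38 from heart down to liver lay at an adjusted p of 0.0508. Below these steps, liver, kidney and brain could not be ordered for Lum and Dcn, nor heart, kidney and liver for Tcf21. For the other 7 genes no neighbouring organs could be told apart.

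Heart had the highest value of the 4 organs for 5 of 10 genes among FFPE and 7 of 10 among frozen libraries, against 25.9% and 20.65% of all tested genes. Brain had the lowest value for 7 of 10 genes among FFPE and 5 of 10 among frozen libraries, against 27.04% and 26.6%. These are counts without a test.

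Some of the 10 genes had a similar pattern over organs. After the mean of each preservation type was taken off, Pearson's r over the 8 libraries was 0.95 for Lum and Dcn, 0.95 for Tcf21 and Pdgfra and 0.92 for Myh11 and Tagln, while Lum and Tagln had -0.01. The points share libraries and the organ steps within them, so r is a description. The nearest genes were picked from 21085 genes outside the set and are named as a description too. For Lum they were Camk1, Ldb3 of the muscle Z-disc and Mylk3, a kinase of heart myosin light chain (r = 0.987, 0.986 and 0.979), and for Dcn Tmem127, 4933426K07Rik and Msx1 (0.992, 0.985 and 0.982). For Tcf21 they were Angpt2, Icosl and Tmc6 (0.990, 0.989 and 0.987), for Postn Osmr, Foxd2os and Sting1 (0.990, 0.977 and 0.974), and for Pdgfra Ankdd1b, 2610027K06Rik and Fmo4 (0.986, 0.980 and 0.978). For Pdgfrb they were Ermap, Wnt10b and Endou (0.992, 0.992 and 0.990), and for Acta2 Gp6, Loxl2 and Smpd5 (all 0.988). For Myh11 they were Rbpjl, Pros1 and Irak1 (0.971, 0.963 and 0.963), for Tagln Mtfr2, Psg27 and AI661453 (0.977, 0.971 and 0.966), and for Cnn1 Ppm1m, Nedd1 and Adamtsl5 (0.968, 0.958 and 0.947).

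FFPE and frozen tissue were compared next. Cnn1, Myh11, Postn and Pdgfra passed as higher in FFPE libraries, and no gene of the set passed as lower. That is 4 of 10, where 16.5% of all tested genes passed as higher and 21.3% as lower. FFPE and frozen libraries did not overlap for Cnn1 and Myh11, 2 of 10 genes, against 30.3% of all tested genes. The median difference was 0.54 for the 10 genes and 0.18 over all tested genes, and this second value moved to 0.003 after quantile normalization and to 0.52 after upper quartile scaling. Over all tested genes 4240 were higher and 5477 lower, and after upper quartile scaling 8565 and 2731.

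Cnn1 had between 14.1 and 16.5 CPM in the 4 FFPE libraries, against 4.74 to 8.18 CPM in the 4 frozen libraries. Every FFPE library was above every frozen one, on 47 to 92 reads against 10 to 16. The log2 difference was 1.34 ± 0.35 (SE, 4 and 4 libraries), 2.53-fold, with an adjusted p of 0.00892, and 1.16 relative to the median of all tested genes. It did not pass after quantile normalization (0.71, adjusted p = 0.126), without FFPE kidney (adjusted p = 0.0644) or without frozen kidney (adjusted p = 0.053). The neighbouring gene Elof1, 3765 bases away, had log2 values of 3.22 to 4.04 in the FFPE libraries, against 1.63 to 2.24 in the frozen libraries, so its groups did not overlap either.

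Myh11 had between 47.0 and 73.2 CPM in the FFPE libraries, against 24.7 to 44.1 CPM in the frozen libraries, and the groups did not overlap. It was 1.59-fold higher (0.67 ± 0.19, adjusted p = 0.0134) and 0.49 above the median of all tested genes. Pdgfra was 1.5-fold higher (0.59 ± 0.19, adjusted p = 0.0263) and Postn 1.57-fold higher (0.65 ± 0.24, adjusted p = 0.0426), each in 4 of 4 organs but with overlapping groups. Myh11 did not pass without either brain or either kidney library, Pdgfra without either brain or either liver library, and Postn whichever of the 8 libraries was left out, after quantile normalization (adjusted p = 0.0898) and with precision weights (adjusted p = 0.0557). Without the intensity trend Cnn1 alone of the 4 passed (adjusted p = 0.0269). Pdgfrb also passed after quantile normalization (adjusted p = 0.00945), after upper quartile scaling and without either brain library, Acta2 after upper quartile scaling (adjusted p = 0.031), and Tagln without either heart library. FFPE libraries were also the deeper ones, and the part of depth in these differences was not tested.

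Lum, Dcn and Tcf21, the genes that differed most between organs, had differences close to 0 over the 4 organs, at -0.08 ± 0.30, -0.02 ± 0.27 and 0.01 ± 0.35, with signs that turned under other scalings. These means hid organs of opposite sign. For Tcf21 the FFPE value lay 1.36 above the frozen one in brain and 1.01 below it in heart, and for Lum 0.69 above it in kidney and 0.66 below it in heart. Heart had the lowest FFPE minus frozen value for 7 of 10 genes, against 23.2% of all tested genes. With 1 library per organ and preservation type these differences between organs could not be tested. They are the residual variation of the main fit, on which its SEs and p-values rest.

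**Figure D4:**
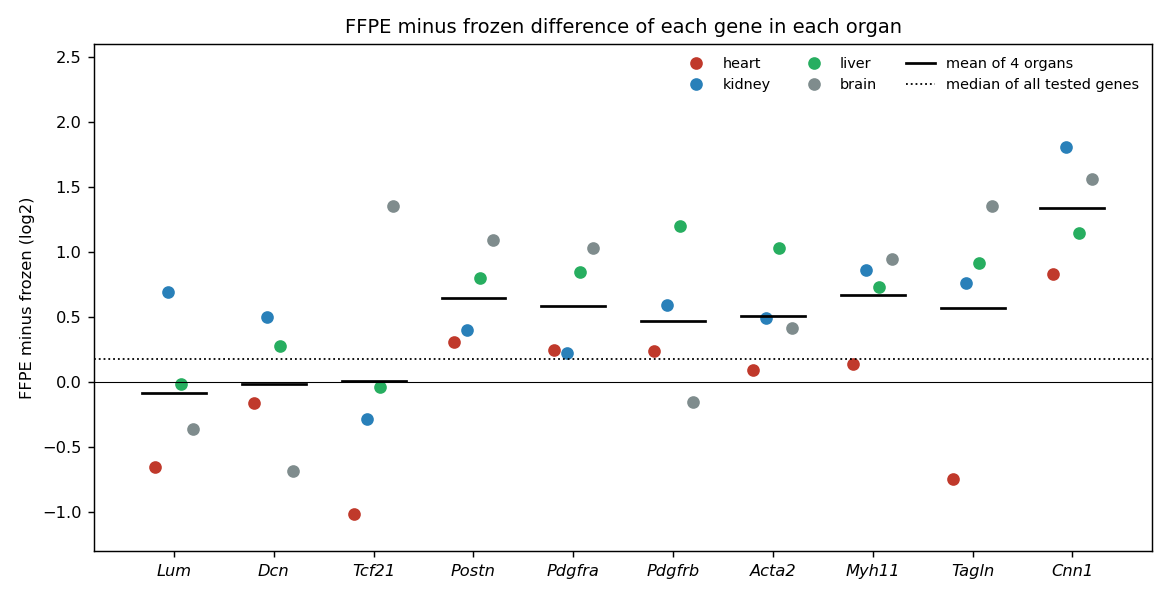
FFPE minus frozen difference on the log2 scale for each gene, with 1 point per organ, a bar for the mean of the 4 organs and a dotted line for the median of all tested genes (0.18). Cnn1 lies highest, between 0.83 in heart and 1.81 in kidney, while the points of Lum, Dcn and Tcf21 fall on both sides of 0.

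Wider lists of the same cell types and their signals, 5 lists with 121 genes, were set beside the 10 genes in heart. Of the 121 genes 28 passed as higher and 1 as lower, 23.1% and 0.826% of the list genes, against 1.72% and 0.853% of all tested genes. The lists, like the 10 genes, were chosen with earlier results of these data known. Their shares, here and in the other comparisons, are therefore a description and no independent support. Of 28 fibroblast matrix genes 2 passed as higher and none as lower, with a median of 0.64: Sparc, a collagen-binding matrix protein, was 2.81-fold higher and Fbn1, which forms microfibrils, 1.91-fold. Of 24 genes for fibroblast surface proteins and regulators 8 passed as higher, with a median of 0.86. Wt1 of the epicardium and podocytes (4.51-fold) and the intermediate filament gene Vim (3.01-fold) led them. Meox1, a switch of fibroblast activation (2.84-fold), and the epicardial factor Tbx18 (2.69-fold) followed. Since 7 of 8 endothelial markers also passed in heart, these calls need not come from fibroblasts. The part of endothelial cells in them was not tested.

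Of 28 smooth muscle contractile and regulator genes 8 passed as higher in heart, with a median of 0.50. The largest were Hspb1, a small heat shock protein (2.62-fold), Tagln2, a relative of Tagln (2.57-fold), Myocd, the myocardin gene (2.51-fold), and Pln, which encodes phospholamban (2.5-fold). Pln and Myocd are among those also active in heart muscle cells, and the part of heart muscle in these 8 calls was not tested. Of 20 pericyte and stellate cell genes 4 passed as higher and 1 as lower, with a median of 0.49. The exception, Reln, which encodes the secreted glycoprotein reelin, differed by -0.76 ± 0.17 and was named after its value was seen. The transcription factor gene Foxc1 was 2.86-fold, Foxs1 2.76-fold, the Notch target Heyl 2.71-fold and the amine oxidase gene Aoc3 2.4-fold higher.

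Of 21 genes of platelet-derived growth factor and transforming growth factor beta signalling 6 passed as higher in heart, with a median of 0.51. The ligand gene Tgfb2 was 2.68-fold, the ligand gene Pdgfd 2.34-fold, the matrix signal gene Ccn2 2.26-fold and the ligand gene Tgfb1 2.17-fold higher. The receptors Pdgfra and Pdgfrb themselves did not pass in heart. None of the heart list calls was left without the intensity trend, where no gene of the table passed in heart, and 2 genes of the table passed there without frozen heart. With upper quartile scaling Tagln2 (adjusted p = 0.054), Aoc3 (adjusted p = 0.0532) and Twist1 (adjusted p = 0.0563) did not pass.

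**Figure D5:**
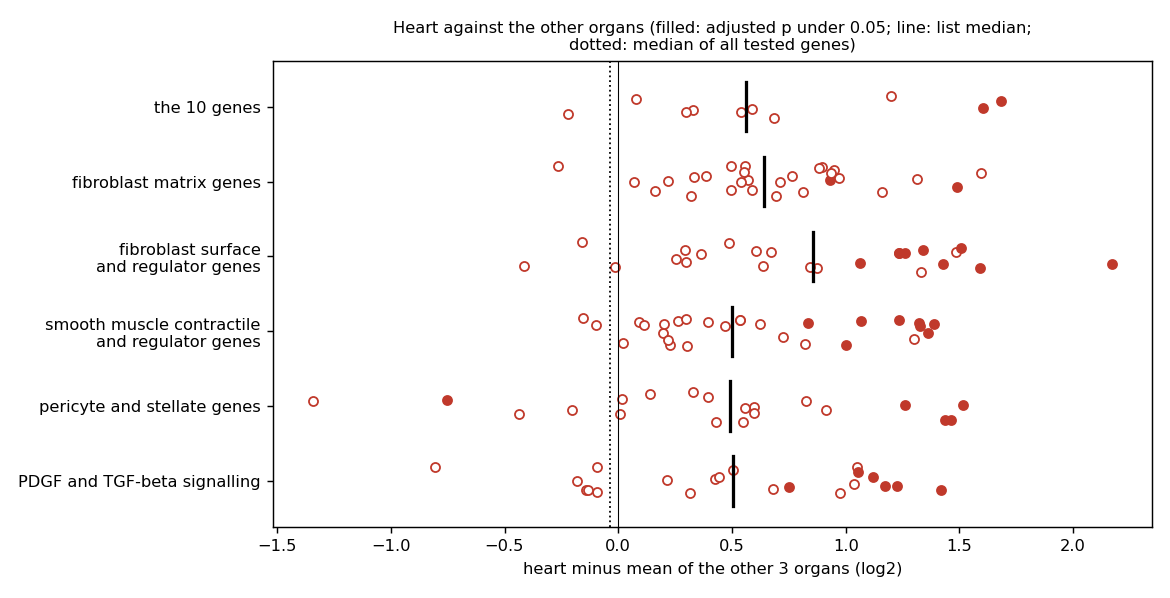
Difference of heart from the mean of the other 3 organs for the 10 genes and for 5 wider lists, on the log2 scale, with filled points for genes that passed, black bars for list medians and a dotted line for the median of all tested genes (-0.04). List medians lie between 0.49 and 0.86.

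In brain 3 of the 121 list genes passed as higher and 20 as lower, 2.48% and 16.5%, against 5.53% and 4.53% of all tested genes. Among the 28 matrix genes none passed as higher and 3 as lower, Pcolce by -1.33 ± 0.34 and Sparc by -0.98 ± 0.27 among them. Among the 24 fibroblast surface and regulator genes 2 passed as higher and 5 as lower: Scx, a tendon regulator, was 3.98-fold higher, and Ly6a differed by -1.77 ± 0.34. Among the 28 smooth muscle genes none passed as higher and 4 as lower, led by Tagln2 at -1.70 ± 0.33 and Hspb1 at -1.44 ± 0.20. Among the 20 pericyte and stellate genes 1 (Reln, 2.05-fold) passed as higher and 5 as lower, with Anpep at -1.65 ± 0.39 and Foxs1 at -1.62 ± 0.31, and among the 21 signalling genes 3 as lower, with Ccn2 at -1.44 ± 0.23 and Tgfb1 at -1.31 ± 0.18.

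In kidney 3 of the 121 list genes passed as higher and 1 as lower, 2.48% and 0.826%, against 0.802% and 0.405% of all tested genes. Ly6a, a surface protein of progenitor and endothelial cells, was 3.39-fold, Foxc1 1.93-fold and Gas1 1.64-fold higher, and Vtn differed by -2.25 ± 0.34. In liver Vtn, which encodes vitronectin, a plasma protein made by hepatocytes, was 11.9-fold higher, and Anpep 4.49-fold. Igfbp4 was 3.35-fold and the plasma and matrix protein gene Fn1 2.77-fold higher in liver. In liver 4 of the 121 list genes passed as higher and 17 as lower, 3.31% and 14.05%, against 5.13% and 4.84% of all tested genes. Among the lower ones were Scx at -2.22 ± 0.34, Ltbp1 at -1.33 ± 0.28, Pdgfb at -1.09 ± 0.26, Synpo2 at -1.05 ± 0.22, Pln at -0.82 ± 0.24 and Fbn1 at -0.81 ± 0.19.

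In FFPE against frozen libraries 20 of the 121 list genes passed as higher and 12 as lower, 16.5% and 9.92%, against 16.5% and 21.3% of all tested genes. Of the 28 matrix genes 6 passed as higher and none as lower, with Bgn 2.6-fold and Fbln2 2.02-fold higher. Of the 20 pericyte and stellate genes 4 passed as higher, with Cspg4 at 2.25-fold and Mcam at 1.74-fold. Of the 24 fibroblast surface and regulator genes 2 passed as higher, with Gli1 at 1.9-fold, and 2 as lower, with Gas1 at -0.90 ± 0.13. Of the 28 smooth muscle genes 5 passed as higher, led by Kcnmb1 at 1.96-fold, and 7 as lower, led by Hspb1 at -0.90 ± 0.18, which is 17.9% and 25% of them and near the shares of all tested genes. Of the 21 signalling genes 3 passed as higher, with Ltbp2 at 1.89-fold, and 3 as lower, with Pdgfc at -1.23 ± 0.18. The counts depended on the scaling. The 7 smooth muscle genes that passed as lower became 1, Hspb1, after quantile normalization and also after upper quartile scaling, and the 6 matrix genes that passed as higher became 8 and 17. Bgn (adjusted p = 0.292), Kcnmb1 (adjusted p = 0.0843) and Gas1 (adjusted p = 0.0696) did not pass after quantile normalization, and Vcl, which encodes vinculin and had passed as lower at -0.42, was at 0.07 there (adjusted p = 0.717). Vcl and Ryr2 were chosen after their values were seen.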

How the data were processed

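The deposited table holds log2 values for each of 27179 genes in 8 H3K4m3 libraries. Bowtie2, featureCounts and limma are the tools named, with the mm10 build, per the submitters' processing notes. No source used here gives their versions, the counted region or the strand setting. The values behave as the log2 of reads plus 0.5 over a scaled library size, and whole reads came back for 100% of the deposited values to within 0.001. Input samples were not used here. A linear model with organ and preservation as terms was fitted to the deposited log2 values in limma 3.58.1 (R 4.3.3), with moderated variances that follow intensity and 3 residual degrees of freedom. Genes with a mean log2 value of at least 0 were tested (25680), and Benjamini-Hochberg adjustment covered them all. Adjusted p-values in the text come from this model unless an alternative is named. With 1 library for each organ and preservation type, the fit had no replicates. Its 3 residual degrees of freedom hold how far the organ differences disagree between FFPE and frozen libraries. Every SE and p-value rests on that disagreement, moderated across genes, and the disagreement may be technical. Whether different animals were used is not stated, so none of these values measures a spread between animals. Counting intervals are exact Poisson at 95% and cover counting error only, and 3 reads correspond to 0.537 to 1.69 CPM.

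The main fit used the deposited log2 values, and no count-based test was run, although whole reads could be recovered. The precision weights alternative took its weights from the recovered reads. The fit was tested on simulated data with known changes in heart. Those data held no preservation difference and the same dispersion for every gene. The test therefore does not cover FFPE against frozen, or genes that vary more than was simulated. The 10 genes and all lists were chosen with earlier results of these data known. All 10 genes are described. For each, the 3 genes with the highest Pearson r are named, and for each list the 4 largest passing differences in heart and up to 2 in other comparisons. Neighbouring genes were looked up within 5000 bases in RefSeq, whose GRCm38.p6 table also gave the promoter sequences. Alternatives were no filter, a mean log2 value of at least 2, quantile normalization, upper quartile scaling, no intensity trend, precision weights, a pseudocount of 1 CPM, and leaving out each library.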

Additional observations from a re-analysis of the deposited data

Results flagged for a closer look

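Cnn1 is the gene of the set for which an organ changed ends between preservation types. Kidney had the highest of the 4 FFPE values, 0.206 above the mean of the other FFPE organs on the log2 scale, and the lowest of the 4 frozen values, 0.418 below the mean of the other frozen organs. The gap between the 2 is 0.624. The difference was not tested, since each organ has 1 library of each type. The frozen kidney value rests on 10 reads, with a 95% Poisson interval of 2.16 to 8.30 CPM, which overlaps those of the other frozen libraries. Of 20 groups of 4 libraries, none held a value that stood apart by Dixon's test at 95%. The 4 libraries of a group come from different organs, so this test cannot tell a deviant library from an organ difference.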

How the results depend on the processing

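No paired analysis was possible by replicate number, because the columns carry no replicate numbers. FFPE against frozen was paired by organ in the main fit, since the organ term compares the FFPE and the frozen library within each organ. Without the intensity trend the counts of the 10 genes that passed were 0 in heart, 0 in brain, 1 in FFPE against frozen and 0 over the organ pairs, and the counts of all genes were 0 in heart (3295 at an unadjusted p under 0.05), 217 in brain, 0 in kidney (2066 unadjusted) and 0 in liver (4715 unadjusted). With quantile normalization 3 of the 10 genes passed in brain, 1 in liver and 11 gene and organ pair combinations, and 1382 of all genes in heart and 838 in kidney. Precision weights left 417 of all genes in heart, and no filter 201 in kidney. The cause was not tested.

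Leaving out 1 library moved the count of the 10 genes between 0 and 3 in heart, 0 and 3 in brain, 0 and 1 in liver (it stayed at 0 in kidney), 1 and 4 in FFPE against frozen and 1 and 13 over the organ pairs. Counts of all genes lay between 2 (without frozen heart) and 2097 in heart, 326 (without frozen brain) and 4291 in brain, 0 (without frozen kidney, 557 unadjusted) and 1033 in kidney, 464 (without frozen liver) and 4832 in liver, each highest without FFPE liver, and 6063 (without FFPE kidney) and 8633 in FFPE against frozen.

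Among the 10 genes, the signs that turned were of differences that did not pass. With precision weights Myh11 in heart was -0.0852, Cnn1 in kidney 0.0744, Cnn1 in liver -0.0132 and Tcf21 in FFPE against frozen -0.282. With quantile normalization Tcf21 in liver was 0.0857, Acta2 in liver 0.002 and Tcf21 in FFPE against frozen -0.424. With upper quartile scaling Cnn1 in liver was -0.0202, and in FFPE against frozen Lum was 0.259 and Dcn 0.327. With a pseudocount of 1 CPM Tcf21 in FFPE against frozen was -0.0469.

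Leave-one-out ranges crossed 0 in heart for Myh11 (-0.276 to 0.428), Tagln (-1.10 to 0.659) and Cnn1 (-0.0416 to 0.634), in brain for Pdgfrb (-0.733 to 0.0965), and in kidney for Postn (-0.040 to 0.295), Tagln (-0.137 to 0.448) and Cnn1 (-0.418 to 0.206). In liver they did for Dcn (-0.369 to 0.0241), Tcf21 (-0.305 to 0.296), Pdgfra (-0.279 to 0.0688), Acta2 (-0.525 to 0.175) and Cnn1 (-0.0671 to 0.183), and in FFPE against frozen for Lum (-0.344 to 0.106), Dcn (-0.189 to 0.205) and Tcf21 (-0.445 to 0.346). Where an organ is left with 1 library, that library is assumed to vary like the others. Depth limits Cnn1, with 10 to 16 reads in frozen libraries, and Tcf21, with 6 in frozen brain.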
